A study of Rattus norvegicus with 24 samples.

Results

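Gene expression in the rat lung after cigarette smoke alone was compared with that after air alone. The 8 rats, 4 in each group, were those whose labels name smoke or air by nose and air in the chamber, of 24 rats in all. Expression covered 14217 genes, which are all genes with a probe set of 1 gene symbol, each taken from its brightest probe set over the 24 arrays. No measured value entered the choice of rats or of the 14217 genes, but the probe set that stands for a gene was chosen by its level.

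The series asked about the joint effect of smoke and inhaled Iraqi sand, with silica as a further particle, and its text names 17 male rats in each of 6 groups. All rats were adult male Sprague-Dawley (CD) rats, an outbred laboratory stock, listed at 17 weeks of age in the labels and at 10 to 15 weeks in the series text. The smoke rats were held nose-only in cigarette smoke of 0.48 mg per litre, in daily sessions of 3 hours on 5 days of each week. The protocol gives this schedule 5 weeks and the series text 6. The control rats were held in the same way in air, and both groups then lived in chamber air for 18 hours of each of 7 days per week, during 2 weeks. The other 16 rats received the same 2 nose-only treatments with Iraqi sand or silica in the chamber at 1 mg per cubic metre, and none of them is in either group compared here. RNA came from the whole right caudal lobe of 1 rat per array, so airway, vessel, alveolar and blood cells were measured together. In such tissue fewer cells of a type and less RNA per cell cannot be told apart.

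Inhaled smoke is taken up in the alveoli mainly by macrophages, which engulf particles and surfactant lipid and break them down in lysosomes. Epithelial cells and macrophages that meet smoke are known to release chemokines, small proteins that call neutrophils and monocytes into the airspace. Lung cells also keep a circadian clock, a loop in which PER and CRY proteins repress the activators that switch on their own genes, and they carry enzymes that detoxify smoke constituents, many of them driven by the aryl hydrocarbon receptor and NRF2.

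The median log2 value of an array ran from 7.26 to 7.32, and precision is set by how few arrays a group holds. Sftpc, the surfactant gene that defines alveolar type 2 cells, stood between 14.79 and 14.90 in the 8 rats. Control rat 104 stood apart in markers of cardiac and striated muscle and of airways, whose origin in that rat was not tested. Its mean over 24 cardiac and striated muscle markers was 8.16, against 5.89 to 6.08 in the other control rats and 5.72 to 6.79 in the smoke rats. Its mean over 11 club and secretory airway markers was 10.75 against 9.69 to 9.79, while smoke rats 203 and 204 reached 11.26 and 10.96. Smoke rat 201 had a mean of 9.30 over 10 neutrophil markers, above the 7.45 to 7.87 of its group mates and the 7.32 to 7.64 of the control rats. Rat 302, which breathed air by nose and sand in the chamber, correlated less with the other arrays (mean 0.944) than any other rat. It enters the smoke-alone comparison only through the shared estimate of spread, but it is a control rat in the comparison with particles.

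Values are given for control rats 102, 103, 104 and 105 and then for smoke rats 201, 203, 204 and 205, always in that order and as log2 intensity. Differences are smoke minus air on the log2 scale, each with its standard error. The p-values are limma's, adjusted by the Benjamini-Hochberg method over 14217 genes, and they measure the spread between animals. A gene is called, or said to have risen or fallen, at an adjusted p under 0.05. Each call named below held when any 1 of the 8 rats was removed, except where the text lists the rats whose removal ended it. Gene lists are described by the number of members called and by the median change of the measured members, where the median over all genes was -0.01. Over all genes, 0.76% rose and 0.134% fell, and 5.56% were higher and 4.4% lower at an unadjusted p under 0.05. The lists were chosen with earlier results of these data known, so these shares are no independent baseline for them.

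Smoke alone raised 108 genes (0.76% of those tested) and lowered 19 (0.134%). The rises ran from 0.31 to 2.11 with a median of 0.70, and 21 of them were at least 2-fold. The falls ran from 0.37 to 1.36 in size with a median of 0.50, and 3 were at least 2-fold. An unadjusted p under 0.05 was reached by 1415 genes (9.95%), of which 790 were higher (5.56%) and 625 lower (4.4%). In each of the 127 called genes the 4 smoke rats lay wholly above or wholly below the 4 control rats, which was so for 4.86% of all genes in the higher and 5.08% in the lower direction. Leading the rises were a chemokine, a chitinase, lysosomal and phagocyte genes, complement C3 and repressors of the clock.

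Rat 201 carried much of the count. It held the highest value of the 4 smoke rats in 80 of the 108 rises (74.1%), against 26.6% of all genes. Without it 46 genes passed, 45 of them among the 127. Leaving out rat 102 gave 57 genes, rat 103 gave 69, rat 104 gave 89, rat 105 gave 79, rat 203 gave 75, rat 204 gave 84 and rat 205 gave 177. Of the 127 calls, 43 were kept whichever of the 8 rats was left out. Without rat 302 the count was 269, with all 127 among them, and without rats 302, 104 and 604 it was 279, with 119 of the 127.

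**Figure D1:**
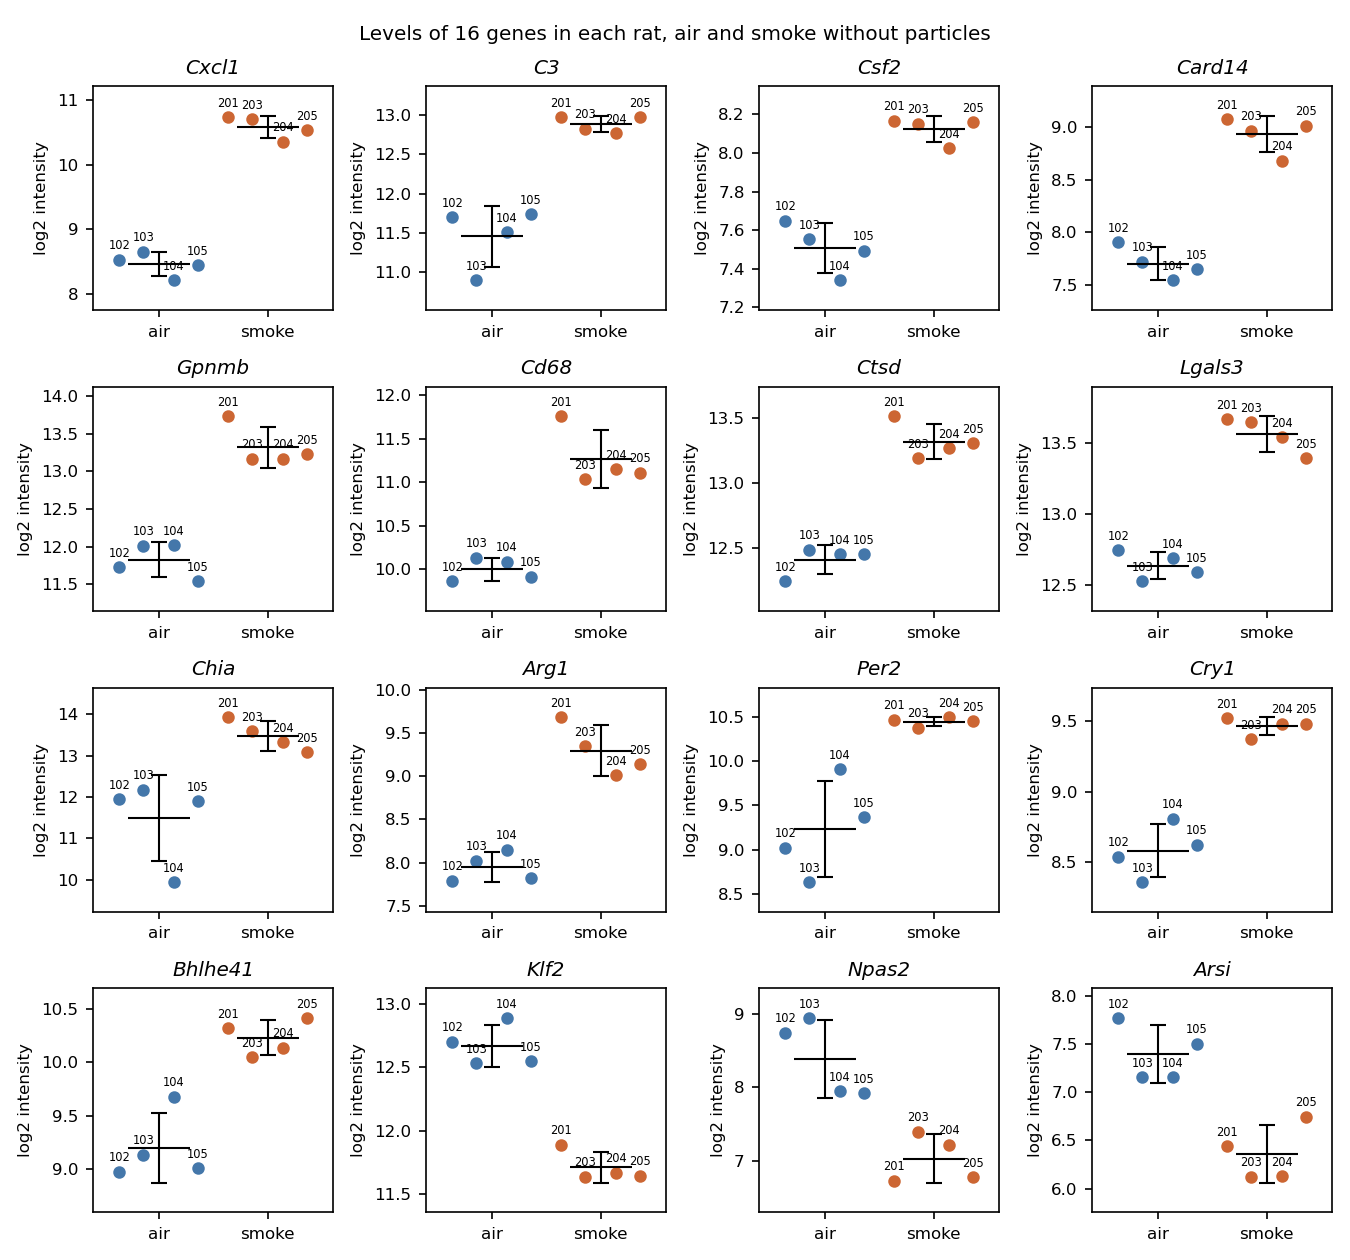
Log2 intensity (y axis) of 16 genes in each of the 4 control and 4 smoke rats, with rat numbers beside the points; bars are the group mean and its standard deviation. Each gene shown was called, and in each panel the smoke rats lie wholly above the control rats or, for Klf2, Npas2 and Arsi, wholly below them.

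The chemokine lists held few called genes, with the largest rise of all genes among them. The neutrophil-attracting chemokine Cxcl1 stood at 8.54, 8.66, 8.21 and 8.45 in the control rats and at 10.73, 10.70, 10.35 and 10.53 in the smoke rats. The groups were separated by more than the whole range of either, and the gene rose by 2.11 ± 0.26, or 4.33-fold (adjusted p = 0.000263). Cxcr1, a receptor for such chemokines that neutrophils carry, stood at 7.19, 7.50, 7.57 and 7.11 against 9.33, 8.39, 8.33 and 8.72 and rose by 1.35 ± 0.22 (adjusted p = 0.00387). Rat 201 was the highest of the smoke rats in both genes, by a wide margin in Cxcr1. Of the 21 measured CXC chemokines and receptors these were the 2 that rose, against 0.76% of all genes, and none fell. The median change was -0.06, or between -0.11 and 0.06 with 1 of the 8 rats left out. Cxcl2, a chemokine that signals through the same class of receptor, stood at 5.97, 5.97, 5.86 and 6.19 against 7.42, 7.40, 6.71 and 6.63, a difference of 1.04 ± 0.26 that missed the threshold (adjusted p = 0.063). The epithelial chemokine Cxcl14 was lower in each smoke rat, at 9.88, 9.61, 9.88 and 9.52 against 8.29, 8.14, 8.79 and 8.94, and did not pass either (-1.18 ± 0.38, adjusted p = 0.203).

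Neutrophil genes were higher in rat 201 than elsewhere. Of 10 measured neutrophil markers 1 rose, Cxcr1 itself, and the median change of 0.82 became 0.16 without rat 201. None of 16 measured neutrophil granule and acute phase genes was called, and 15 had a higher mean, against 46.7% of all genes. That list mean ran from 7.40 to 7.65 in the control rats and from 8.03 to 9.11 in the smoke rats, so the groups were apart. Its median change of 0.54 was 0.13 without rat 201. The granule collagenase Mmp8 was at 8.52 in rat 201 and between 5.41 and 5.96 in its group mates, who overlapped the control rats at 5.15 to 5.65. The calcium-binding protein S100a9, which neutrophils hold in large amounts, was at 13.31 in rat 201, at 11.42 to 11.62 in the other smoke rats and at 10.11 to 11.23 in the control rats, a difference of 1.46 ± 0.41 (adjusted p = 0.112). The rise of Cxcl1 does not rest on that rat, as the other 3 smoke rats stood at 10.35 or more against at most 8.66 in any control rat. The part of neutrophil content in the other calls was not tested.

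Ccl3, made by activated macrophages, stood at 7.95, 8.07, 8.22 and 7.88 against 9.06, 8.74, 8.61 and 8.91, a rise of 0.80 ± 0.16 (adjusted p = 0.0122) whose call ended without rat 102 or rat 201 (adjusted p up to 0.0696). Ccl6 rose by 0.64 ± 0.13 from 12.95, 13.12, 13.12 and 13.05 to 13.97, 13.50, 13.65 and 13.69 (adjusted p = 0.0165), a call that ended without the same 2 rats (adjusted p up to 0.092). They were the 2 of 21 CC chemokines and receptors that rose, with a median change of 0.06 (-0.02 to 0.14 with 1 of the 8 rats left out) and none that fell. The T cell chemokine Ccl5 and the monocyte chemokine Ccl2 did not pass, with Ccl5 at 12.19, 11.92, 11.94 and 11.88 against 11.31, 10.91, 10.77 and 11.80 and Ccl2 overlapping between groups (0.81 ± 0.60, adjusted p = 0.766).

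Csf2, the growth factor on which alveolar macrophages depend to mature, stood at 7.65, 7.55, 7.34 and 7.49 in the control rats and at 8.17, 8.15, 8.03 and 8.16 in the smoke rats. The 4 smoke rats lay close together above all control rats, and the gene rose by 0.62 ± 0.12 (adjusted p = 0.00843), though its other, dimmer probe set changed by 0.09 ± 0.10. Csf2ra, the ligand-binding chain of its receptor, rose from 8.15, 8.35, 8.36 and 8.13 to 9.12, 8.64, 8.73 and 8.92 (0.60 ± 0.12, adjusted p = 0.0179), a call that ended without rats 102, 105 or 201 (adjusted p up to 0.104). Of 34 measured interleukins, growth factors and inflammasome genes these 2 rose and none fell, with a median of 0.01. Tumour necrosis factor, Tnf, overlapped between groups (0.26 ± 0.11, adjusted p = 0.397), and Il1b was at 11.16 in rat 201 and at 8.73 to 9.39 in its group mates, with 8.57 to 9.65 in the control rats. Tnfsf13, a survival factor for B cells named here after its values were seen, stood at 10.57, 10.52, 10.66 and 10.55 against 11.52, 11.24, 11.29 and 11.30 and rose by 0.76 ± 0.10 (adjusted p = 0.000654), and its other probe set changed by 0.80 ± 0.12.

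Card14, a scaffold that activates the NF-kB pathway through which inflammatory signals switch on chemokines, had the smallest adjusted p of all genes. It stood at 7.90, 7.72, 7.54 and 7.64 in the control rats and at 9.07, 8.97, 8.68 and 9.01 in the smoke rats, a rise of 1.23 ± 0.12 (adjusted p = 2.06e-05). Nfkbiz, a nuclear co-regulator of NF-kB targets, stood at 8.82, 8.94, 8.70 and 8.93 against 9.97, 9.89, 9.55 and 9.55 and rose by 0.89 ± 0.21 (adjusted p = 0.0364), a call that ended without any 1 of rats 102, 103, 104, 105, 201, 203 or 204 (adjusted p up to 0.165), and its dimmer probe set changed by -0.05 ± 0.09. The mitochondrial superoxide dismutase Sod2, a known target of the pathway, rose from 10.38, 10.28, 10.48 and 10.62 to 11.66, 11.36, 11.23 and 11.14 (0.91 ± 0.17, adjusted p = 0.00872, or 0.0595 without rat 201).

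Upstream sequence was read for the called genes because several of them moved together, from RefSeq promoters of assembly GRCr8, which held 96 of the 127 genes. The 250 bases before the start of transcription were searched on both strands. The kappaB motif, written here as GGG, any 3 bases and TTCC, a simplified form of the sequence that NF-kB binds, was in 8 of the 84 risen genes with a promoter (9.52%) and in 5.48% of the 11733 measured genes with one. Cxcl1 held 3 matches, 2 of which overlap on opposite strands, more than any other called gene, and its sequence is shown for that reason, from base 120 to base 41 before the start, with the matches in capitals. It lies on the minus strand at chr14:17479362-17479441.
Cxcl1: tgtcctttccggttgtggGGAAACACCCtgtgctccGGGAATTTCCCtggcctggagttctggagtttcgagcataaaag
A match describes the letters of the window and is no measurement of binding.

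In the complement cascade, which tags particles and microbes for uptake, the central component C3 stood at 11.70, 10.89, 11.51 and 11.73 against 12.98, 12.83, 12.77 and 12.98. The lowest smoke rat was above the highest control rat by more than the spread within the smoke group, and C3 rose by 1.43 ± 0.20, or 2.70-fold (adjusted p = 0.000793). It was the 1 of 19 measured complement genes that passed, against 0.76% of all genes that rose. The median change of the list was 0.30, which was 0.16 without rat 201. Cfi, the protease that inactivates C3b, stood at 7.38, 7.28, 7.65 and 6.83 against 8.56, 10.50, 9.80 and 7.96, a difference of 1.92 ± 0.53 whose spread among the smoke rats was wide (adjusted p = 0.111). The count of complement genes that rose stayed at 1 without any of the rats except 205, where it was 4. C4bpa, the chain of an inhibitor of the classical pathway, was outside that list and rose from 9.74, 9.64, 8.96 and 9.06 to 10.71, 10.46, 10.36 and 10.46 (1.15 ± 0.20, adjusted p = 0.00628).

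Of the lists, the lysosomal hydrolases held the most called genes. Of 35 measured lysosomal hydrolases, the enzymes that digest engulfed material, 7 rose, against 0.76% of all genes, and none fell. The median change was 0.23, and 33 had a higher mean in the smoke rats, against 46.7% of all genes. In 18 of the 35 every smoke rat was above every control rat, against 4.86% of all genes. The count of 7 fell to 1 without rat 102 or without rat 201, to 2 without rat 103 or 105 and to 3 without rat 104 or 204, and was 6 without rat 203 and 8 without rat 205, while the median stayed between 0.21 and 0.27. Among 26 lysosomal membrane and trafficking proteins 5 rose, against 0.76% of all genes, and none fell, with a median of 0.22, and 3 rose without rat 201. A higher mean was found for 25 of the 26. In 14 every smoke rat was above every control rat, against the same 4.86% of all genes. Both lysosomal lists were chosen with earlier results of these data known, so setting their counts against all genes is no independent test. Without rat 302 the counts of risen genes in the hydrolase and membrane lists were 9 and 7. All 16 measured subunits of the vacuolar proton pump, which acidifies the lysosome, had a higher mean (median 0.14, or 0.09 without rat 201), of which 1, Atp6v1b2, was called (0.42 ± 0.09, adjusted p = 0.0171), and that call ended without rats 102, 103 or 201 (adjusted p up to 0.0999).

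**Figure D2:**
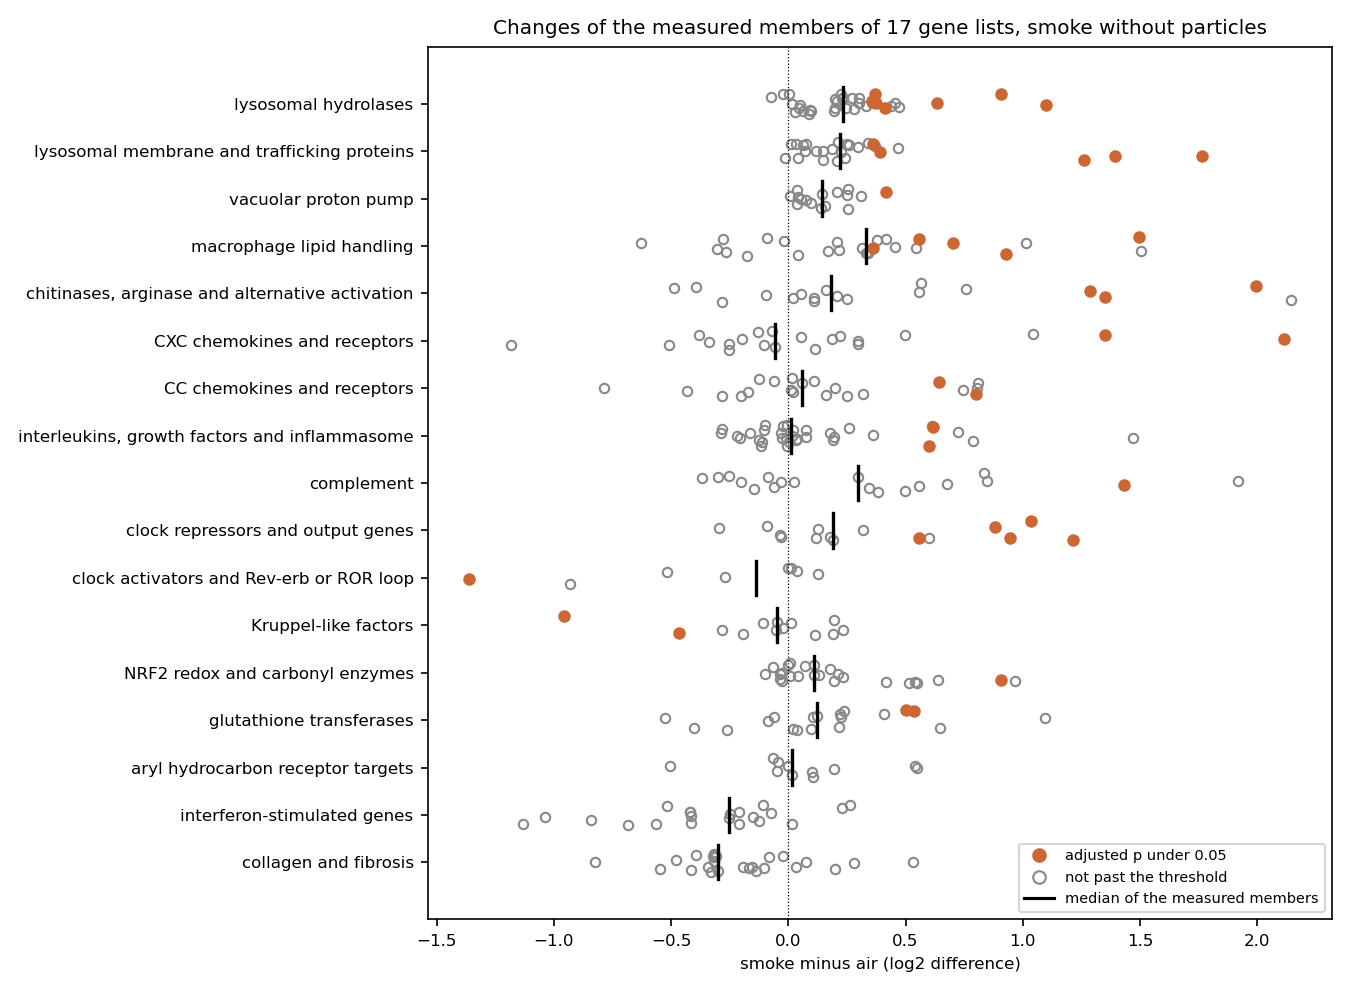
Smoke minus air (x axis, log2 difference) for each measured member of 17 gene lists, 1 point per gene; filled points passed an adjusted p of 0.05, open points did not, and black bars mark the median of the measured members. The lysosomal lists lie to the right of 0 almost whole, with medians of 0.23 and 0.22, while the interferon and collagen lists have medians of -0.26 and -0.30 and no filled point.

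The aspartic protease Ctsd, the main one of the lysosome, stood at 12.25, 12.49, 12.46 and 12.45 in the control rats and at 13.51, 13.19, 13.27 and 13.30 in the smoke rats. The groups were apart by more than the range of either, and it rose by 0.91 ± 0.10 (adjusted p = 9.27e-05). Ctsk, a collagen-degrading protease of osteoclasts and macrophages, stood at 7.19, 7.63, 7.84 and 7.32 against 9.01, 8.46, 8.31 and 8.59 and rose by 1.10 ± 0.22 (adjusted p = 0.0166), a call that ended without rats 102, 105 or 201 (adjusted p up to 0.092). Of the other 5 hydrolases called, the protease Ctsz was the largest at 0.63 ± 0.14 (adjusted p = 0.0285), with 10.16, 10.33, 10.18 and 10.32 against 11.20, 10.69, 10.84 and 10.79. The carboxypeptidase Ctsa, the protease Ctsb, the asparaginyl endopeptidase Lgmn and the hexosaminidase chain Hexa rose by 0.36 to 0.41. These 5 calls each ended without rat 102 and without rat 201, and Ctsa's also without rats 103, 104, 105, 203 or 204 (adjusted p up to 0.178), Ctsb's and Ctsz's without 103, 104, 105 or 204 (0.15 and 0.146), Lgmn's without 103 or 104 (0.13) and Hexa's without 103, 105 or 204 (0.116).

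The lysosomal membrane glycoprotein Cd68, a defining protein of macrophages, stood at 9.86, 10.13, 10.09 and 9.91 against 11.75, 11.03, 11.15 and 11.11. Rat 201 was the highest, the other 3 smoke rats were close together and all were above the control rats, and Cd68 rose by 1.26 ± 0.19, or 2.40-fold (adjusted p = 0.00142). Mcoln2, a cation channel of endosomes and lysosomes, rose from 7.25, 6.85, 7.14 and 6.31 to 8.78, 8.03, 7.93 and 8.40 (1.40 ± 0.25, adjusted p = 0.00617). Mreg, melanoregulin, which takes part in the traffic of lysosome-related organelles, stood at 5.49, 5.61, 6.54 and 4.88 against 7.73, 7.46, 7.10 and 7.29 and rose by 1.76 ± 0.30, or 3.40-fold (adjusted p = 0.00518). Its control rats spread more widely than its smoke rats. The tetraspanin Cd63 rose by 0.39 ± 0.07 (adjusted p = 0.0084, or 0.0577 without rat 201) and the lysosomal cholesterol carrier Npc2 by 0.36 ± 0.08 (adjusted p = 0.0272), a call that ended without rats 102, 103, 104, 201, 203 or 204 (adjusted p up to 0.132).

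More lysosomal genes were called outside the lists, and they are named after their values were seen. The lysosomal exonuclease Pld3 stood at 8.85, 8.85, 9.04 and 8.80 against 10.03, 9.70, 9.72 and 9.87 and rose by 0.95 ± 0.13 (adjusted p = 0.000455). The acid amidase Naaa, which degrades fatty acid amides, rose from 11.48, 11.83, 11.92 and 11.47 to 12.59, 12.33, 12.53 and 12.48 (0.81 ± 0.15, adjusted p = 0.00817). The nucleic acid transporter Sidt2 rose by 0.44 ± 0.08 (adjusted p = 0.00628) and Rragd, a Rag GTPase that signals nutrient supply at the lysosome, by 0.48 ± 0.08 from 6.61, 6.26, 6.59 and 6.54 to 6.99, 7.04, 6.97 and 6.92 (adjusted p = 0.00597). The dipeptidase Dpp7 rose by 0.60 ± 0.11 (adjusted p = 0.0085, or 0.0595 without rat 201). All 5 were thus higher in each smoke rat than in each control rat.

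Phagocyte genes of lipid and glycan handling moved with them. Gpnmb, a glycoprotein of phagocyte lysosomes, stood at 11.73, 12.01, 12.02 and 11.54 in the control rats and at 13.73, 13.17, 13.17 and 13.23 in the smoke rats, a 2.82-fold rise (standard error 0.19 on the log2 scale, adjusted p = 0.000338). The smoke rats other than 201 lay close together. The galectin Lgals3, abundant in macrophages, stood at 12.74, 12.52, 12.69 and 12.59 against 13.67, 13.65, 13.54 and 13.39 and rose by 0.93 ± 0.10 (adjusted p = 4.75e-05). Abcg1, which exports cholesterol from macrophages, rose by 0.56 ± 0.13 from 10.69, 10.92, 10.68 and 10.71 to 11.47, 11.24, 11.11 and 11.41 (adjusted p = 0.0345), a call that ended without rats 102, 104, 105, 201, 203 or 205 (adjusted p up to 0.162). The fatty acid binding protein Fabp5 rose by 0.70 ± 0.16 (adjusted p = 0.0408), a call that ended whichever of the 8 rats was left out (adjusted p up to 0.18). With Npc2 these made 5 risen of 25 measured genes of macrophage lipid handling, against 0.76% of all genes. None fell and the median was 0.33, and 2 or 3 members rose with 1 of the 8 rats left out.

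Upstream windows are shown for 3 genes of this group because they hold the motifs searched. The AP-1 motif TGANTCA was in 6 of the 84 risen genes (7.14%) and in 4.84% of all measured genes, and Gpnmb and Cd68 hold it. The E-box CACGTG, which basic helix-loop-helix factors bind, was in 7 of 84 (8.33%) and in 7.82% of all, near the background. Capitals mark the matches. The window of Gpnmb covers bases 110 to 51 before the start on the plus strand at chr4:79341018-79341077, that of Cd68 lies on the minus strand at chr10:54882502-54882656 and that of Ctsd, which ends at the start itself, on the minus strand at chr1:206968822-206968996.
Gpnmb: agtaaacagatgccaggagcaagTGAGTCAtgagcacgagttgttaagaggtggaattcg
Cd68: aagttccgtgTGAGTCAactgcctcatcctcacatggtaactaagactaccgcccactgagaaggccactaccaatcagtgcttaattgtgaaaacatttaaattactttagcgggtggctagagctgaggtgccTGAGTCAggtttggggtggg
Ctsd: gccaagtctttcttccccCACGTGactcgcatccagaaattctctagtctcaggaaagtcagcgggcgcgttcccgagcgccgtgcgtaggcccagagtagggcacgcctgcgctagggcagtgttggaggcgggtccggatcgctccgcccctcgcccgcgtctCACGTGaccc
The second E-box of Ctsd lies within TCACGTGA, the core of the CLEAR element of lysosomal genes, which was in 1.19% of the risen genes and 1.30% of all.

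Surface receptors and the oxidase of phagocytes were among the other rises. The sialic acid receptor Cd33 stood at 7.99, 8.08, 8.03 and 8.02 against 9.47, 8.65, 8.92 and 8.79 and rose by 0.93 ± 0.14 (adjusted p = 0.00141). The control rats were nearly equal, and rat 201 was the highest smoke rat. The inhibitory receptor relative Cd200r1l rose by 0.84 ± 0.14 from 6.45, 6.42, 6.46 and 6.28 to 7.49, 7.20, 7.18 and 7.09 (adjusted p = 0.00306). Cyba, a membrane subunit of the NADPH oxidase of phagocytes named after its values were seen, rose by 0.64 ± 0.13 (adjusted p = 0.0214), a call that ended without rats 102, 103, 104 or 201 (adjusted p up to 0.111), and its other, dim probe set changed by -0.02 ± 0.07. None of 22 scavenger and pattern receptors passed in limma, with 4 at an unadjusted p under 0.05 in the higher direction, against 5.56% of all genes. Among the 4 was the lipopolysaccharide receptor Cd14 at 9.76, 9.90, 9.52 and 9.85 against 10.79, 10.86, 10.42 and 10.02 (0.77 ± 0.21, adjusted p = 0.107).

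The alveolar macrophage list itself gave a mixed count. Of 15 measured markers 4 rose, Cd68, Chia, Ctsd and Ctsk, and 1 fell, the adhesion receptor Adgre1, known as F4/80. A higher mean in the smoke rats was found for 9 of the 15, against 46.7% of all genes. The list mean was between 8.71 and 8.87 in the control rats and between 8.97 and 9.40 in the smoke rats, so the groups did not overlap, and the median change was 0.42. Without rat 102, 105 or 201, 3 rose. Adgre1 stood at 7.03, 7.32, 7.53 and 7.15 against 6.56, 6.49, 6.77 and 6.41 and fell by 0.70 (standard error 0.15, adjusted p = 0.0254), a call that ended without rats 103, 104, 201, 203 or 205 (adjusted p up to 0.0904). The macrophage elastase Mmp12 stood at 6.79, 6.40, 6.85 and 6.53 against 9.61, 8.43, 8.22 and 7.33, apart in every rat but widely spread under smoke (1.76 ± 0.48, adjusted p = 0.104). Spp1, osteopontin, overlapped between the groups (0.53 ± 0.86, adjusted p = 0.948).

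Chitinase-family genes and arginase rose as well. Chia, the acidic chitinase of the lung, stood at 11.95, 12.18, 9.95 and 11.90 in the control rats and at 13.93, 13.60, 13.34 and 13.09 in the smoke rats, and rose by 1.99 ± 0.35, or 3.99-fold (adjusted p = 0.00617). Control rat 104 lay far below its group mates, and the call was kept without it (adjusted p at most 0.0374 with any 1 rat left out). Arg1, which turns arginine into ornithine, rose from 7.79, 8.02, 8.15 and 7.82 to 9.69, 9.35, 9.02 and 9.14 (1.35 ± 0.21, adjusted p = 0.00193). Chi3l1, a chitinase-like protein without enzyme activity, stood at 10.95, 10.59, 11.29 and 10.27 against 12.62, 12.21, 11.89 and 11.54 and rose by 1.29 ± 0.30 (adjusted p = 0.0415), a call that ended without rats 102, 103, 105, 201, 203 or 204 (adjusted p up to 0.206). They were 3 of 18 measured genes of chitinases, arginase and alternative macrophage activation, with none that fell, a median of 0.18 and 2 or 3 that rose with 1 of the 8 rats left out. Without rat 302, 3 rose and 2 fell. The smoke rats lay wholly above the control rats in 5 of the 18 and wholly below them in 3, against 4.86% and 5.08% of all genes. The mitochondrial arginase Arg2 was apart in every rat, at 6.54, 6.43, 6.39 and 6.29 against 7.37, 6.69, 7.01 and 6.80, and missed the threshold (0.56 ± 0.15, adjusted p = 0.0853).

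Clock genes formed the next group. Of 15 measured repressors and output genes 5 rose, against 0.76% of all genes, and none fell. Their median was 0.19, or 0.37 without rat 104, and 3 rose without rat 102, 103, 201 or 204. The repressor Per2 stood at 9.02, 8.64, 9.91 and 9.37 in the control rats and at 10.46, 10.38, 10.49 and 10.45 in the smoke rats. The smoke rats were nearly equal while the control rats were widely spread, and Per2 rose by 1.21 ± 0.22 (adjusted p = 0.00668), though its other probe set changed by 0.09 ± 0.07. The repressor Cry1 showed the same narrow smoke group, at 8.54, 8.36, 8.81 and 8.62 against 9.52, 9.37, 9.48 and 9.48, and rose by 0.88 ± 0.16 (adjusted p = 0.00817). Bhlhe41, a repressor that competes with the activators for E-boxes, rose from 8.98, 9.13, 9.68 and 9.01 to 10.32, 10.05, 10.14 and 10.42 (1.03 ± 0.15, adjusted p = 0.00146).

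Its relative Bhlhe40 stood at 7.23, 7.23, 7.21 and 7.39 against 8.14, 8.14, 8.33 and 8.22 and rose by 0.94 ± 0.20 (adjusted p = 0.0189), a call that ended without rats 102, 103, 104, 201 or 204 (adjusted p up to 0.0661). Both groups were tight in that gene, so the shared estimate of spread, from all 24 rats, sets its error. The clock-controlled kinase Wee1 rose by 0.56 ± 0.13 (adjusted p = 0.0427), a call that ended without rats 102, 103, 105, 201, 203 or 204 (adjusted p up to 0.178), and its other probe set changed by 0.50 ± 0.12. In these 5 genes control rat 104 was the highest of its group in 4, all but Bhlhe40.

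On the other arm of the loop the activator Npas2 stood at 8.75, 8.94, 7.94 and 7.92 in the control rats and at 6.73, 7.39, 7.22 and 6.77 in the smoke rats. It fell by 1.36 (standard error 0.30, adjusted p = 0.031), the largest fall of the called genes, and the call ended without rats 102, 103, 201, 204 or 205 (adjusted p up to 0.14). Bmal1, the core activator, stood at 8.27, 8.63, 6.76 and 7.37 against 6.58, 7.01, 6.93 and 6.79, where control rat 104 lay within the smoke rats (-0.93 ± 0.28, adjusted p = 0.15). The repressor of Bmal1, Nr1d1, overlapped between groups at 9.73, 9.20, 10.20 and 9.87 against 9.18, 9.18, 9.38 and 9.19 (-0.52 ± 0.22, adjusted p = 0.386). Of 8 measured activators and genes of the Rev-erb and ROR loop 1 fell and none rose, with a median of -0.14, and without rat 104 2 fell. The labels give no hour of tissue collection.

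**Figure D3:**
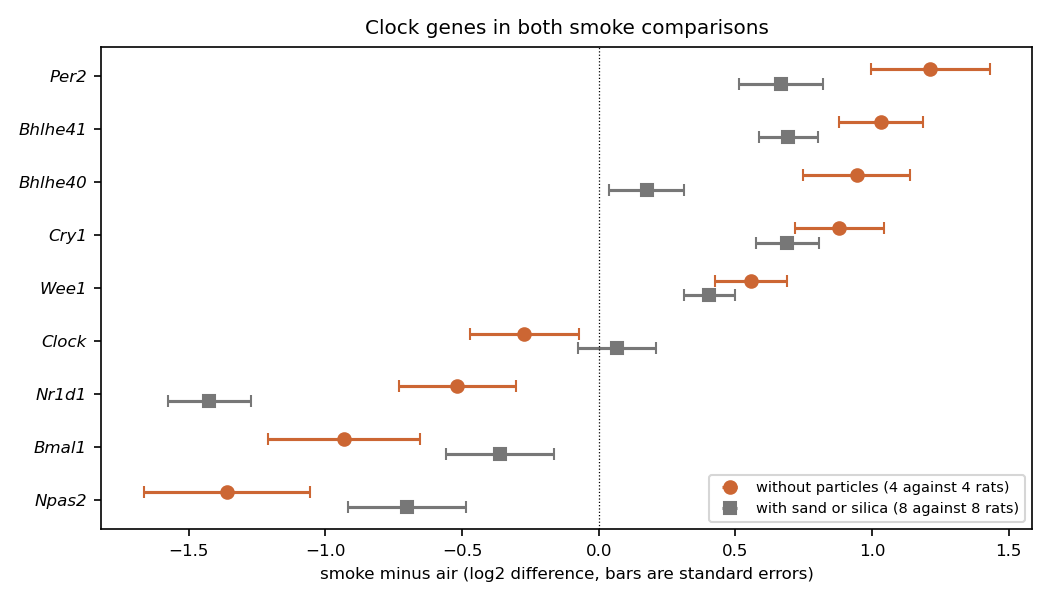
Smoke minus air (x axis, log2 difference) for 9 clock genes, with circles for rats without particles and squares for rats that breathed sand or silica; bars are standard errors. Per2, Bhlhe41, Cry1 and Wee1 lie right of 0 and Npas2 left of 0 in both sets of rats, at 1.21 and 0.67 for Per2 and at -1.36 and -0.70 for Npas2.

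Upstream windows of 2 genes are shown because they hold elements through which the clock acts. The D-box TTANGTAA was in 4 of the 84 risen genes (4.76%), namely Cd68, Chi3l1, Dpp7 and Per2, and in 1.25% of all measured genes. The window of Per2 lies on the minus strand at chr9:99497144-99497203, with the D-box in capitals. That of Bhlhe41 covers bases 75 to 16 before the start on the minus strand at chr4:180569371-180569430, with the E-box in capitals.
Per2: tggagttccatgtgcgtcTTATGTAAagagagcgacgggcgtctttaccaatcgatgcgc
Bhlhe41: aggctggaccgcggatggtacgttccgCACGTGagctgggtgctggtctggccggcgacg

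Detoxification genes gave few calls. Cyp1a1, a target of the aryl hydrocarbon receptor known to respond to smoke, stood at 9.04, 8.84, 7.76 and 8.31 in the control rats and at 9.04, 8.35, 8.35 and 7.94 in the smoke rats, with full overlap (-0.07 ± 0.32, adjusted p = 0.992). None of the 11 measured genes of its list passed in limma, with 1 at an unadjusted p under 0.05, and the median change was 0.01 (-0.01 to 0.12 with 1 of the 8 rats left out). Among 25 NRF2-driven redox and carbonyl enzymes 1 rose, Sod2, and the median was 0.11, or 0.07 without rat 104. A higher mean was found for 18 of the 25, against 46.7% of all genes. At an unadjusted p under 0.05 in limma 7 were higher, against 5.56% of all genes, and none lower. Nqo1, the quinone reductase, was higher in each smoke rat, at 10.93, 10.98, 10.97 and 11.11 against 11.27, 12.25, 11.51 and 11.13, and rat 203 was far above the rest (0.54 ± 0.25, adjusted p = 0.465). The haem oxygenase Hmox1 stood at 8.19, 8.55, 8.33 and 8.32 against 8.87, 9.18, 9.05 and 8.81 (0.63 ± 0.23, adjusted p = 0.278).

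Of 19 glutathione transferases, which conjugate reactive smoke products, 2 rose and the median was 0.12. At an unadjusted p under 0.05 in limma 6 were higher and 1 lower, against 5.56% and 4.4% of all genes. Gsta1 was tight in both groups, at 12.13, 12.02, 12.18 and 12.15 against 12.66, 12.69, 12.66 and 12.62, and rose by 0.54 ± 0.10 (adjusted p = 0.00763). The microsomal transferase Mgst2 rose by 0.50 ± 0.11 (adjusted p = 0.029), a call that ended without rats 102, 103, 104, 201, 203 or 204 (adjusted p up to 0.138). Gsta3 stood at 6.32, 6.23, 6.72 and 6.32 against 7.22, 8.32, 7.46 and 6.97, with no overlap, and missed the threshold (1.10 ± 0.28, adjusted p = 0.0747). None of 19 genes of glutathione synthesis and recycling and none of 11 genes of NADPH supply passed in limma. At an unadjusted p under 0.05 were 8 and 5, all in the higher direction, against 5.56% of all genes. A higher mean was found for 16 of the 19 and 9 of the 11, against 46.7% of all genes. Without rat 302, 3 of the NADPH genes rose. Outside the lists, and named after its values were seen, the peroxiredoxin Prdx5 rose from 11.16, 11.28, 11.27 and 11.19 to 12.24, 11.84, 11.83 and 11.78 (0.70 ± 0.11, adjusted p = 0.00276).

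The sulfhydryl oxidase Qsox1, which forms disulfide bonds in secreted proteins, stood at 8.22, 8.23, 8.26 and 8.16 in the control rats and at 9.49, 9.83, 9.28 and 8.94 in the smoke rats. Control values were nearly equal, smoke values were spread, and it rose by 1.16 ± 0.17, or 2.24-fold (adjusted p = 0.00122), with its other probe set at 1.10 ± 0.17. Enpp2, autotaxin, which makes the lipid mediator lysophosphatidic acid, rose from 11.02, 10.64, 10.62 and 10.78 to 12.14, 12.00, 11.57 and 11.44 (1.02 ± 0.19, adjusted p = 0.00843, or 0.0583 without rat 201). The exchange factor Tiam1, which activates the GTPase RAC, stood at 6.28, 6.59, 7.16 and 6.25 in the control rats, was at 7.44 or more in each smoke rat and rose by 1.02 ± 0.17 (adjusted p = 0.00518), while its 3 dimmer probe sets changed by 0.37 ± 0.10, 0.16 ± 0.08 and -0.04 ± 0.08. Nt5e, which makes adenosine outside the cell and is named after its values were seen, rose by 0.77 ± 0.14 from 8.27, 8.20, 8.15 and 7.92 to 8.95, 9.04, 8.86 and 8.75 (adjusted p = 0.00757).

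Airway and epithelial genes were less regular. The desmosomal cadherin Dsc2 stood at 5.91, 5.96, 5.92 and 5.67 against 6.85, 7.91, 6.92 and 6.70 and rose by 1.23 ± 0.28 (adjusted p = 0.0311), a call that ended without any 1 of rats 102, 103, 104, 105, 201, 203 or 204 (adjusted p up to 0.135). The membrane mucin Muc1 was the 1 of 18 measured mucin and goblet cell genes that rose, by 0.42 ± 0.09 from 11.76, 11.74, 11.58 and 11.86 to 12.23, 12.23, 12.08 and 12.07 (adjusted p = 0.0197), a call that ended without rats 102, 103, 104, 201 or 203 (adjusted p up to 0.0973). The water channel Aqp3, at 7.71, 6.02, 6.71 and 5.15 against 9.09, 9.78, 8.76 and 7.68, and the mucin-folding protein Agr2, at 8.92, 8.63, 9.22 and 8.54 against 10.03, 12.47, 11.14 and 9.09, overlapped between groups and did not pass (adjusted p = 0.0982 and 0.249). Rat 203 was the highest in both, and its club, ciliated and basal cell list means were also the highest of the 8 rats, at 11.26, 10.31 and 6.83. Lcn2, an iron-binding protein of neutrophils and injured epithelium, ran from 6.20 to 11.48 in the control rats and from 9.20 to 14.11 in the smoke rats, with the lowest value of each group in rats 104 and 204 (2.99 ± 1.20, adjusted p = 0.351).

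Among the 19 falls were 2 Kruppel-like transcription factors. Klf2, which blood flow induces in endothelium and which also keeps T cells quiet, stood at 12.70, 12.53, 12.89 and 12.55 in the control rats and at 11.89, 11.64, 11.67 and 11.65 in the smoke rats. The smoke rats were tightly grouped below the control rats and Klf2 fell by 0.96 (standard error 0.18, adjusted p = 0.0084). Its 4 other probe sets changed by -1.16 ± 0.21, -0.41 ± 0.12, -0.17 ± 0.10 and -0.09 ± 0.09, so they differed in size but not in sign. Klf4 stood at 11.69, 11.74, 11.66 and 11.55 against 11.16, 11.22, 11.27 and 11.12 and fell by 0.47 (standard error 0.10, adjusted p = 0.031), a call that ended without any 1 of rats 102, 103, 104, 201, 203, 204 or 205 (adjusted p up to 0.119). Of 13 measured family members these 2 fell, against 0.134% of all genes, and none rose. The median was -0.05 (-0.06 to 0.01 with 1 of the 8 rats left out).

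Beside Klf2, the list of 16 endothelial markers had no called gene in limma, with 1 at an unadjusted p under 0.05, and a median of -0.15. In 4 of the 16 every smoke rat was below every control rat, against 5.08% of all genes, and in none above. A higher mean was found for 3 of the 16, against 46.7% of all genes. The endothelial list mean ran from 11.09 to 11.36 in the control rats and was at most 11.15 in the smoke rats, so the groups overlapped. The T and NK cell list had no called gene of 26 either, and its median was -0.57. In limma 16 had an unadjusted p under 0.05, all lower, against 4.4% of all genes. In 14 every smoke rat was below every control rat, against 5.08% of all genes. The list mean was 7.94 to 8.12 in the control rats and 7.36 to 7.80 in the smoke rats, so the groups were apart. Without rat 302, 2 of its genes fell. The T cell receptor chain gene Cd3d, for example, stood at 8.36, 8.31, 8.43 and 7.96 against 7.31, 7.14, 7.67 and 7.70 (-0.81 ± 0.23, adjusted p = 0.113). The part of these cell types in the fall of Klf2 was not tested.

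The other falls belonged to several functions. The sulfatase Arsi stood at 7.77, 7.16, 7.16 and 7.51 against 6.44, 6.12, 6.13 and 6.75 and fell by 1.04 (standard error 0.16, adjusted p = 0.00177). Hhip, an inhibitor of hedgehog signalling made in the lung mesenchyme, stood at 7.75, 7.98, 6.87 and 7.38 against 6.40, 5.74, 6.52 and 6.48 and fell by 1.21 (standard error 0.28, adjusted p = 0.0345), a call that ended without rats 102, 103, 105, 201, 203 or 204 (adjusted p up to 0.156). The leukocyte sialoglycoprotein Spn, CD43, fell by 0.95 (standard error 0.19, adjusted p = 0.0167) from 9.89, 9.89, 10.48 and 9.86 to 8.82, 8.91, 9.28 and 9.28, a call that ended without rats 104, 201 or 203 (adjusted p up to 0.092). The kinase Prkcd fell by 0.54 (standard error 0.10, adjusted p = 0.00668), at 10.61, 10.66, 10.34 and 10.54 against 9.99, 9.90, 10.00 and 10.12.

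The matrix protein Dpt, dermatopontin, fell by 0.40 (standard error 0.08, adjusted p = 0.0138), a call that ended without rats 102, 104 or 203 (adjusted p up to 0.0596), and its other probe set changed by -0.29 ± 0.08. The thyroid hormone receptor Thra fell by 0.52 (standard error 0.11, adjusted p = 0.0197), a call that ended without rats 102, 103, 201, 203 or 204 (adjusted p up to 0.0857), and its 2 dimmer probe sets changed by -0.22 ± 0.19 and 0.04 ± 0.06. The adrenergic receptor Adra1b fell by 0.68 (standard error 0.15, adjusted p = 0.031), a call that ended without rats 102, 103, 104, 201, 203 or 204 (adjusted p up to 0.14). The remaining 8 falls, Ankrd50, Fkbp7, Gfra2, Mpzl2, Nav2, Schip1, Serinc5 and Trim3, were of 0.37 to 0.50 in size. Each of these calls ended without at least 1 rat, that of Serinc5 without rat 201 alone (adjusted p = 0.0604) and that of Nav2 without any of the 8 (adjusted p up to 0.174). None of 25 collagen and fibrosis genes passed in limma, with 4 at an unadjusted p under 0.05, all lower, and a median of -0.30, and without rat 302, 1 fell. That median was -0.15 without rat 104, -0.17 without rat 205 and -0.19 without rat 103, and 0.00 in the rats with particles. Col1a1 overlapped between the groups at 9.57, 9.95, 10.64 and 9.43 against 9.22, 10.27, 9.75 and 9.05.

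The same smoke contrast was available in the 16 rats that breathed sand or silica, none of which is in the groups above. Averaged over both particles, 288 genes passed there (2.03%), 96 higher (0.675%) and 192 lower (1.35%). That count ran from 169 without rat 502 to 657 without rat 305, and was 427 without rat 302, 108 on those 16 arrays alone and 16 on the arrays with an RNA integrity number. Of the 108 genes that rose with smoke alone, 104 had the same sign (96.3%, against 41.5% of all genes higher), 82 were higher at an unadjusted p under 0.05 (75.9%, against 6.11% of all genes) and 44 were called higher. Of the 19 that fell, all had the same sign and an unadjusted p under 0.05 (against 14.9% of all genes lower) and 11 were called lower. Of these 55 calls, 37 were kept whichever of the 16 rats was left out. Both contrasts came from the same fit and share the estimate of spread of each gene. Genes called in smoke alone therefore tend to pass a p threshold with particles more readily, so the shares of all genes are no matched baseline. The signs do not depend on that estimate. The genes were chosen by their size in smoke alone, so the smaller medians with particles, 0.32 against 0.70 for the rises and -0.37 against -0.50 for the falls, cannot be read as a weaker effect.

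The 4 macrophage markers that rose with smoke alone, Cd68, Chia, Ctsd and Ctsk, also rose with particles, while the chemokines Ccl3 (0.33 ± 0.11, adjusted p = 0.108) and Ccl6 (0.18 ± 0.09, adjusted p = 0.262) did not pass there. The macrophage marker that fell with smoke alone, Adgre1, also fell with particles (-0.55 ± 0.11, limma adjusted p = 0.0103). That fall was kept whichever of the 16 rats was left out. With particles Gpnmb rose by 0.93 ± 0.14 (adjusted p = 0.00348), Cd68 by 0.78 ± 0.13 (0.00476), Ctsd by 0.43 ± 0.07 (0.00519), Ctsk by 0.91 ± 0.16 (0.00519) and Lgals3 by 0.35 ± 0.07 (0.0129), by limma in the fit of all 24 arrays. The whole-list medians with particles were 0.08 for lysosomal hydrolases, 0.08 for lysosomal membrane and trafficking proteins and 0.04 for the proton pump. Without particles they were 0.23, 0.22 and 0.14. The median over all genes with particles was -0.03. Cxcl1 rose by 0.87 ± 0.19 (adjusted p = 0.0167), Chia by 1.26 ± 0.25 (0.011), Arg1 by 0.76 ± 0.15 (0.0101), Cxcr1 by 0.83 ± 0.16 (0.00947) and Card14 by 0.41 ± 0.09 (0.0136). Of the 5 clock repressors and output genes, 4 were called again. Cry1 rose by 0.69 ± 0.12 (adjusted p = 0.00476) and Bhlhe41 by 0.69 ± 0.11 (0.00438). Each of these 12 rises was kept whichever of the 16 rats was left out. Per2 rose by 0.67 ± 0.15 (adjusted p = 0.0252), a call that ended without rats 502, 503, 402, 602 or 603 (adjusted p up to 0.0585). Nr1d1, which overlapped between groups without particles, fell by 1.42 with them (standard error 0.15, adjusted p = 8.2e-05), and the difference between both changes was 0.91 ± 0.26 with an adjusted p of 0.967.

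**Figure D4:**
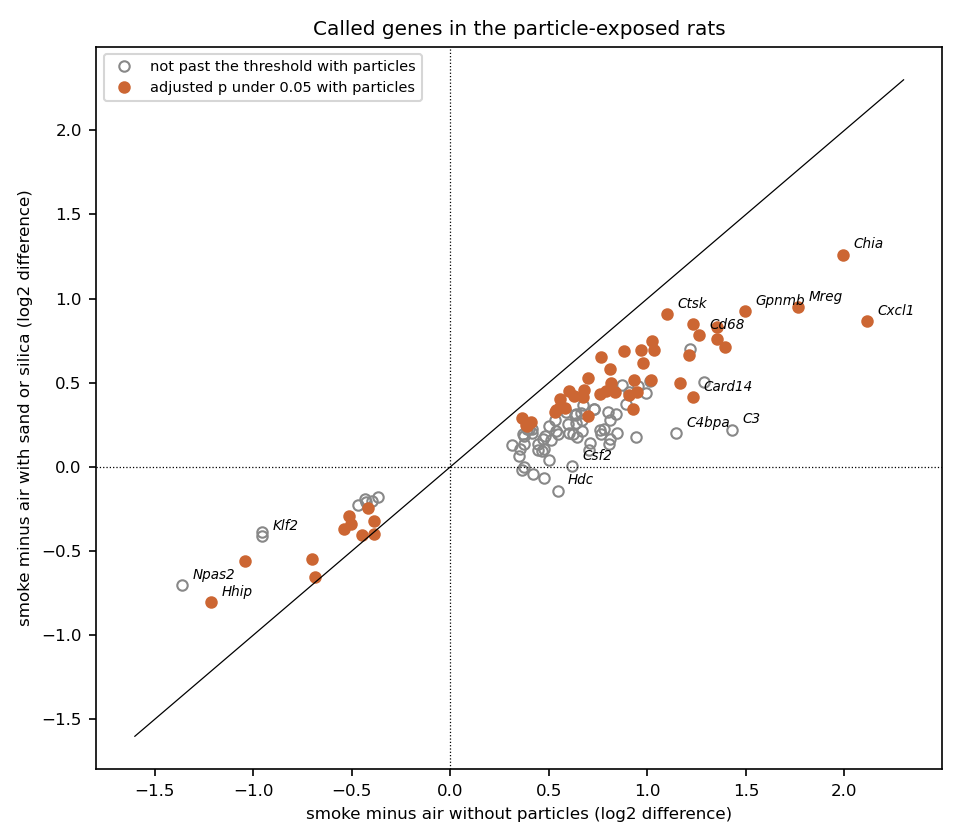
The 127 genes called in smoke alone, with their smoke minus air difference without particles (x axis) against that with sand or silica (y axis), both log2; filled points passed an adjusted p of 0.05 with particles, and the line marks equal differences. Of the 108 rises 104 lie above 0 on the y axis and all 19 falls lie below 0, while C3, Csf2 and Hdc lie near 0 there at 0.22, 0.00 and -0.14.

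Some genes that rose with smoke alone had no call with particles. C3 changed there by 0.22 ± 0.14 (adjusted p = 0.371), Csf2 by 0.00 ± 0.08 (0.986), the histamine-forming enzyme Hdc, whose call in smoke alone ended without rats 102, 103, 105, 201 or 203 (adjusted p up to 0.185), by -0.14 ± 0.09 (0.375), Npc2 by -0.02 ± 0.06 (0.89) and Muc1 by -0.04 ± 0.06 (0.705). Tested directly, the difference between the smoke effects without and with particles passed for none of the 14217 genes in limma, with 579 at an unadjusted p under 0.05 (4.07%).

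The group means show where those genes stood. C3 was at 11.46 ± 0.39 (SD, n = 4) with air alone and at 12.89 ± 0.11 with smoke alone, at 12.43 ± 0.26 and 12.79 ± 0.16 with sand, and at 12.71 ± 0.29 and 12.79 ± 0.45 with silica. Csf2 was at 7.51 ± 0.13 and 8.13 ± 0.07 without particles, at 8.02 ± 0.20 and 8.06 ± 0.17 with sand and at 8.17 ± 0.22 and 8.13 ± 0.16 with silica. In both genes the 3 smoke groups had similar means and the lowest mean was that of the rats with air alone. Cxcl1 followed the same order, at 8.46 ± 0.19 with air alone, 9.11 ± 0.48 with sand and air and 10.20 ± 0.39 with silica and air, against 10.58 ± 0.17, 10.42 ± 0.60 and 10.63 ± 0.37 in the matching smoke groups. Klf2 ran the other way, with its highest mean, 12.67 ± 0.17, in the rats with air alone and 11.76 ± 0.46 and 11.96 ± 0.30 with particles and air, against 11.71 ± 0.12, 11.51 ± 0.10 and 11.38 ± 0.27 with smoke.

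Many called genes had further probe sets that the choice of the brightest left out. For 34 of the 127 genes there were 43 such probe sets, of which 34 had the sign of the gene and 21 that sign at an unadjusted p under 0.05. The antioxidant response element TGACNNNGC, bound by NRF2, was in 6 of the 84 risen genes with a promoter (7.14%) and in 12.3% of all measured genes. The xenobiotic response element GCGTG, bound by the aryl hydrocarbon receptor, was in 31 of the 84 (36.9%), in 6 of the 12 fallen genes and in 41% of all.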

How the data were processed

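Lung RNA of 24 rats was hybridised to 1 Affymetrix Rat230_2 array each. The deposited values are log2 intensities that the authors made with RMA, per the submitters' processing notes, and its version is not given in the sources used here. Of 31099 probe sets, 20826 had 1 gene symbol in the platform annotation, 436 had several and 9780 had none. The brightest probe set over the 24 arrays stood for each of 14217 genes. R 4.3.3 and limma 3.58.1 fitted the means of the 6 groups to all 24 arrays (lmFit, eBayes), so the groups share 1 estimate of spread with 18 residual degrees of freedom. Contrasts were smoke minus air without particles, its mean over sand and silica, and the difference of both. Named genes were the 40 largest rises and the falls without overlap between groups, the called members and up to 4 members of largest absolute moderated t of each list, and genes on a further fixed list, and others are said to be chosen after their values were seen. The members and lists were chosen with earlier results of these data known. Tested on simulated data over 14217 genes, the smoke-alone contrast recovered 58 of 100 genes changed by 0.5 (log2) and 88 of 100 changed by 1, with 6 false calls. Alternatives covered normalization, probe set choice, level and fold filters, array weights, RNA integrity number and left-out rats.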

Additional observations from a re-analysis of the deposited data

Results flagged for a closer look

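In 222 groups of 4 rats, 1 rat stood far from the other 3 in 20 (by Dixon's ratio), where chance alone gives about 1 in 20. Smoke rat 201 was high in Cd68 (11.75, the others 11.03 to 11.15), Gpnmb (13.73, the others 13.17 to 13.23), Prdx5 (12.24, the others 11.78 to 11.84), S100a9 (13.31, the others 11.42 to 11.62) and Klf2 (11.89, the others 11.64 to 11.67). Smoke rat 203 was high in Tiam1 (8.0, the others 7.44 to 7.48) and low in Hhip (5.74, the others 6.40 to 6.52). Smoke rat 204 was low in Lcn2 (9.20, the others 13.88 to 14.11) and Csf2 (8.03, the others 8.15 to 8.17) and high in Nr1d1 (9.38, the others 9.18 to 9.19).

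Control rat 104 was low in Chia (9.95, the others 11.90 to 12.18) and high in Spn (10.48, the others 9.86 to 9.89). It was also high in the means of the club and secretory airway list (10.75, the others 9.69 to 9.79), the basal epithelium list (6.01, the others 5.49 to 5.57), the proliferation list (7.36, the others 7.24 to 7.25) and the cardiac and striated muscle list (8.16, the others 5.89 to 6.08). Among the other control rats, 102 was low in Ctsd (12.25), 103 high in Abcg1 (10.92), and 105 high in Bhlhe40 (7.39) and Il1b (9.65). The part of these rats in the results beside which they are named was not tested.

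Probe sets with several gene symbols or none took no part in the comparison. Of these 10216, 12 passed the threshold in smoke alone by limma (0.117%), 11 higher and 1 lower.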

How the results depend on the processing

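Of the values of the called genes under each alternative, 0 of 2507 changed sign. With the groups of each called gene wholly apart, left-out rats, array weights, filters and other shrinkage could not change a sign. That number is therefore no test of those settings. The smoke-alone count of 127 stayed within 1.5 times under trend and robust shrinkage, a level filter, mean probe sets, centring and repeated quantile normalization. The 8 arrays alone gave 169 genes, 114 higher and 55 lower, with 95 of the 127 among them. Calls lost there included Chia, Tiam1 and Npas2 (limma adjusted p = 0.0839, 0.0651 and 0.052). The count was 79 with a 1.5-fold minimum, 1119 with array quality weights, 42 with RNA integrity number as a covariate and 46 on the same arrays without it. It was 269 without rat 302 and 279 without rats 302, 104 and 604. Leaving out 1 rat at a time gave 46 to 177 genes. With particles the count of 288 became 53 with a 1.5-fold minimum, 108 on those arrays alone, 1271 with weights, 3 with the covariate, 16 on the same arrays without it, and 169 to 657 with 1 rat left out. The cause was not tested. The difference of both contrasts had no call under any of these settings. No paired analysis was possible because the groups share no replicate numbers. With 4 arrays per group, changes of 0.5 or less on the log2 scale are often missed, as 58 of 100 were recovered in simulation.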

Other observations

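Lymphocyte and interferon genes were lower without a call. None of 21 measured interferon-stimulated genes passed in limma, and 8 were lower at an unadjusted p under 0.05, against 4.4% of all genes. In 8 every smoke rat was below every control rat, against 5.08% of all genes. The median change was -0.26, or -0.42 without rat 201 and -0.18 without rat 204. The antiviral GTPase Mx1 stood at 8.59, 8.71, 8.98 and 8.39 in the control rats and at 7.69, 7.62, 6.94 and 7.90 in the smoke rats (-1.13 ± 0.34, adjusted p = 0.154). The ubiquitin-like Isg15 stood at 10.08, 10.19, 10.50 and 10.21 against 10.01, 9.17, 8.75 and 9.68 (-0.84 ± 0.27, adjusted p = 0.189). With particles their changes were -0.16 ± 0.24 and -0.29 ± 0.19. All 13 measured B and plasma cell markers had a lower mean in the smoke rats, with none called in limma, 1 at an unadjusted p under 0.05 and a median of -0.35, which was -0.18 without control rat 104, the highest in the list mean, and -0.22 without rat 201.

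Of 29 measured proliferation genes, 26 had a higher mean in the smoke rats, against 46.7% of all genes, with a median of 0.17, none called in limma and 2 at an unadjusted p under 0.05. The median was 0.03 without rat 203, whose list mean was 7.79 against 7.24 to 7.46 in the other smoke rats. Heat shock genes (11 measured, median 0.01) and genes of cholesterol and fatty acid synthesis (18 measured, median 0.03) had no call in limma and none at an unadjusted p under 0.05.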
